A study of Mus musculus with 2 samples.

Results

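Plasma cells, the antibody-secreting end stage of the B cell lineage, were found among lymphoid cells sorted from the lamina propria of the mouse small intestine (C57BL/6). They were selected on the transcripts of 2 genes. A cell was taken when it had at least 20 unique molecular identifiers (UMIs, each standing for 1 captured transcript) of Jchain and at least 5 of Mzb1. Of 6736 cells with at least 500 genes and at most 10% mitochondrial UMIs, called kept cells here, 271 were plasma cells. They made up 157 of 3339 kept cells in the Zfp36_KO library, called knockout here, and 114 of 3397 in the WT library.

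The knockout library pooled cells of 4 Zfp36-/- mice, which lack the gene for the mRNA decay factor tristetraprolin (TTP), and the WT library pooled cells of 4 WT mice, all on the C57BL/6 background. Each genotype was thus 1 library of droplet-based 3 prime tag sequencing, so genotype and library cannot be told apart and no test between genotypes was possible. Bracketed ranges are 95% intervals that cover counting error only. The sort was meant for innate lymphoid cells, taking live CD45+ cells that lacked lineage markers, CD3 and TCRβ and carried CD90.2 and CD127. Ages and sexes were not given in the sources used here. Y-linked transcripts were found in 12.1% of knockout and 0% of WT plasma cells, and in 16.2% and 0.122% of the other kept cells. A difference in sex between the pools therefore cannot be told apart from genotype either.

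Plasma cells make and export antibody at a very high rate. Nascent immunoglobulin chains enter the endoplasmic reticulum (ER), where chaperones such as BiP (Hspa5) and GRP94 (Hsp90b1) fold them, disulfide isomerases link them, and COPII vesicles carry them to the Golgi. The transcription factor XBP1 drives this machinery and BLIMP-1 (Prdm1) holds the plasma cell state. In the gut lamina propria most plasma cells make IgA, which the J chain joins into polymers for transport across the epithelium.

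ER chaperone genes carry a promoter element, the ER stress response element (ERSE), bound by ATF6 with NF-Y and also by XBP1. It was searched as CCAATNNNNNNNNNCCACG on both strands in the 250 bases before each RefSeq start (build GRCm38.p6). Of the 27 measured genes of the list of ER chaperones and disulfide formation, 21 had a promoter in the table, and 7 of these (33.3%) held the element: Calr, Canx, Creld2, Dnajc3, Hsp90b1, Hspa5 and Pdia6. It occurred in 8 of 614 promoters (1.30%) of genes at least 2-fold higher in plasma cells than in the other cells, in 3 of 1591 promoters (0.189%) of genes at least 2-fold lower, and in 35 of all 27025 promoters (0.130%). Among the 8334 promoters of genes measured in these cells, from which both groups came, it occurred in 15 (0.180%). A related element, UPRE, searched as TGACGTGG, occurred in 13 of the 614 promoters (2.12%), in 76 of the 8334 (0.912%) and in 163 of all 27025 (0.603%). Its holders included Txndc5, Pou2af1 and Sec24d. A match in letters describes the sequence and does not show a bound site. The windows below are shown because their genes return in the comparisons that follow. Each reads 5 prime to 3 prime on the gene's own strand, with capitals marking the outer blocks of the element, which read CGTGG and ATTGG where it lies on the opposite strand.
Hspa5, chr2:34772020-34772048, plus strand: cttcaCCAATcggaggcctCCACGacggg
Hsp90b1, chr10:86705513-86705676, minus strand: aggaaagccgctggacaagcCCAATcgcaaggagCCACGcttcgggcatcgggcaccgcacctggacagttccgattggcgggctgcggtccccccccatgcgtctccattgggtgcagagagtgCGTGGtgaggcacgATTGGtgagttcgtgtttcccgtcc
Canx, chr11:50325780-50325838, minus strand: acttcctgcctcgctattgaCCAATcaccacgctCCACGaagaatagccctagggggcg
Derl3, chr10:75893222-75893280, plus strand: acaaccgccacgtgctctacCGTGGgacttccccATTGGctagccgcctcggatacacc
The Hspa5 window ended 41 bases before the RefSeq start and lay within the longest GENCODE model of the gene. The Hsp90b1 window held 2 copies of the element, 1 on each strand. Derl3 codes for a channel component of ER-associated degradation, and its copy lay on the opposite strand.

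The Jchain limit fell in a sparsely filled range, whereas Mzb1 counts ran on across their limit without a clear gap. The lowest Jchain count inside was 30 UMIs in the knockout and 30 in WT, and the next lowest were 140 and 52 UMIs, while the medians were 2704 and 2741.5 UMIs. Just outside, 11 knockout cells and 3 WT cells passed the Mzb1 limit with at most 3 and 15 Jchain UMIs. On the other side, 5 knockout and 5 WT cells passed the Jchain limit with at most 4 Mzb1 UMIs, against lowest counts inside of 6 and 5 UMIs. They had up to 2991 and 1537 Jchain UMIs. Other kept cells held up to 69.7% and 79.8% immunoglobulin UMIs, so some cells much like plasma cells remained among them. With at least 50 Jchain and 10 Mzb1 UMIs, 144 knockout and 110 WT cells were left. These values chose the cells and support nothing further. Among the other kept cells, 27.8% in the knockout and 33.4% in WT had a Jchain UMI, with a 99th percentile of 3 UMIs, so low Jchain counts also occurred outside the plasma cells.

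**Figure D1:**
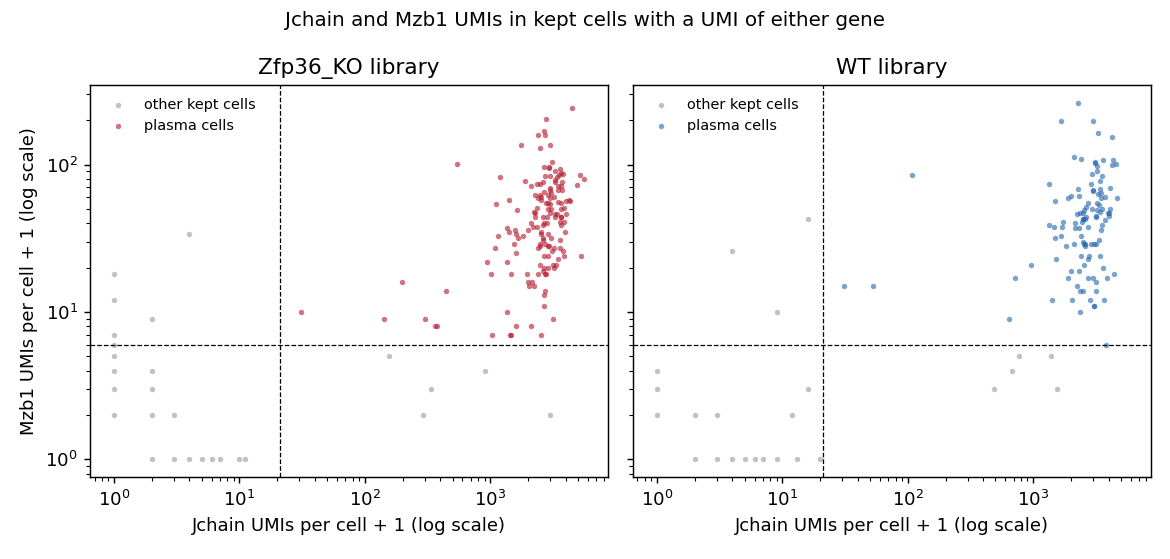
Jchain UMIs per cell plus 1 (x axis, log scale) against Mzb1 UMIs per cell plus 1 (y axis, log scale) in the knockout (left) and WT (right) library, for kept cells with a UMI of either gene. Dashed lines mark the limits of 20 Jchain and 5 Mzb1 UMIs; the 157 knockout and 114 WT plasma cells lie beyond both, most of them far above the Jchain limit.

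Plasma cells took 4.70% of kept cells in the knockout library (4.01 to 5.48, exact Clopper-Pearson) and 3.36% in the WT library (2.78 to 4.02). T cell transcripts were unequally present in the rest of the 2 libraries: 59 knockout cells and 1220 WT cells outside the plasma cells had at least 3 UMIs of Cd3d, Cd3e and Trac together. Without cells of that kind the shares were 4.79% (4.08 to 5.57) in the knockout and 4.53% (3.70 to 5.50) in WT. The share is therefore a share of what passed the gate and the quality limits in each library.

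Immunoglobulin genes held a median of 68.8% of a plasma cell's UMIs in the knockout and 72.5% in WT. Plasma cells held 98.1% and 97.7% of all immunoglobulin UMIs of their libraries. Igha was the most abundant heavy chain gene in 156 of 157 knockout and 109 of 114 WT plasma cells, and lambda UMIs outnumbered kappa UMIs in 12 knockout cells and 1 WT cell. Everything that follows leaves immunoglobulin genes and Jchain out, and levels are CPM, a gene's UMIs scaled to the total of the remaining UMIs, summed over the plasma cells of a library. On that basis plasma cells had a median of 9642 UMIs in the knockout and 10187 in WT, against 5203 and 5229 in the other kept cells, and a median of 2895 and 2910 genes, against 2139 and 2037.

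The cells carried the plasma cell label in genes that the selection had not named. Xbp1 was found in 157 of 157 knockout and 113 of 114 WT plasma cells, at 4577 and 3917 CPM, against 141 and 81.8 CPM in the other kept cells. Sdc1, which codes for the plasma cell surface proteoglycan CD138, was found in 96.2% and 96.5% of them. Of the mature B cell markers, Cd79b of the B cell receptor was found in 91.1% and 98.2% of plasma cells, whereas Ms4a1 (CD20) was found in 5 knockout and 6 WT cells. Markers of the gate were also scarce, since Il7r (CD127) was found in 17 knockout and 24 WT plasma cells and Thy1 (CD90) in 11 and 16, against 89.9% and 92.3% of the other cells for Il7r.

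Transcripts of other cell types were present in part of the cells and were not equal between libraries. The 10 T cell markers summed to 125 CPM in knockout plasma cells, with 3 of them at 0, and to 724 CPM in WT plasma cells, with none at 0, against 997 and 3804 CPM in the other kept cells. At least 3 UMIs of Cd3d, Cd3e and Trac together were found in 0 knockout and 16 WT plasma cells. The 8 macrophage markers summed to 374 CPM in the knockout and 51.6 CPM in WT, and 12 and 7 cells had at least 3 of their UMIs. The 10 ILC markers summed to 376 and 563 CPM, and 15 and 24 cells had at least 3 UMIs. In each library 1 plasma cell had over 20 UMIs of Siglech, a marker of plasmacytoid dendritic cells, with 25 in the knockout cell and 29 in the WT cell. No barcode of a plasma cell occurred in both libraries. Y-linked transcripts were found in 19 knockout and 0 WT plasma cells, and in 516 and 4 of the other kept cells. The part of these cells in the results was not tested, but leaving out every cell with at least 3 UMIs of T cell and ILC markers, or of macrophage and neutrophil markers, left 122 knockout and 66 WT plasma cells, and the values without them, called unmixed cells here, are given below where they matter.

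Set against all other kept cells, plasma cells were led by Prg2 and Ccr10, followed by Mzb1, the uncharacterised Gm30211 and Slpi. Mzb1 was one of the genes that chose the cells. Gm30211 lies at chr6:70719074-70740554 (plus strand), in the region of the immunoglobulin kappa genes, which were left out by symbol only. The part of kappa transcripts in its counts was not tested. Of 10632 genes with at least 50 UMIs in each library's kept cells, 790 were at least 2-fold higher in plasma cells of both libraries, which is 7.43% of genes, and 2122 (20%) were at least 2-fold lower in both. The same cells were chosen by their transcripts, so these ratios are a description. Prg2, the gene of the major basic protein known from eosinophil granules, stood at 777 CPM in knockout and 838 CPM in WT plasma cells, against 0.717 and 0.357 CPM in the other cells. It was found in 89.8% and 90.4% of plasma cells, and with each cell thinned to 1000 non-immunoglobulin UMIs in 43.1% and 43.9%, against 0.0319% and 0.0918% of the other cells. The gene was thus found across most plasma cells of both libraries.

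Ccr10, the receptor for the mucosal chemokine CCL28, stood at 548 and 566 CPM in knockout and WT plasma cells, against 0.672 and 0.868 CPM. Slpi, a secreted inhibitor of leukocyte proteases, stood at 5088 and 3319 CPM, against 9.68 and 5.06 CPM. Survival and signalling receptors followed: Tnfrsf17 (BCMA, the receptor for the survival factor APRIL) stood at 293 and 388 CPM, against 0.269 and 1.17 CPM. Genes known from plasma cells made up much of the rest of the 20 highest, namely Derl3, Eaf2, Txndc5, Pou2af1 and Cd79a, beside Mzb1, which helped choose the cells. Less familiar in this setting were Nuggc, a GTPase gene known from germinal centre B cells, Cacna1h, a T-type calcium channel gene, Ckap4, Dennd5b, Pycr1 of proline synthesis, Pls1, Bhlhe41, the agouti gene a, and the uncharacterised Gm34215. Nuggc, for instance, stood at 120 and 78.9 CPM in knockout and WT plasma cells, against 0.269 and 0.0511 CPM.

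**Figure D2:**
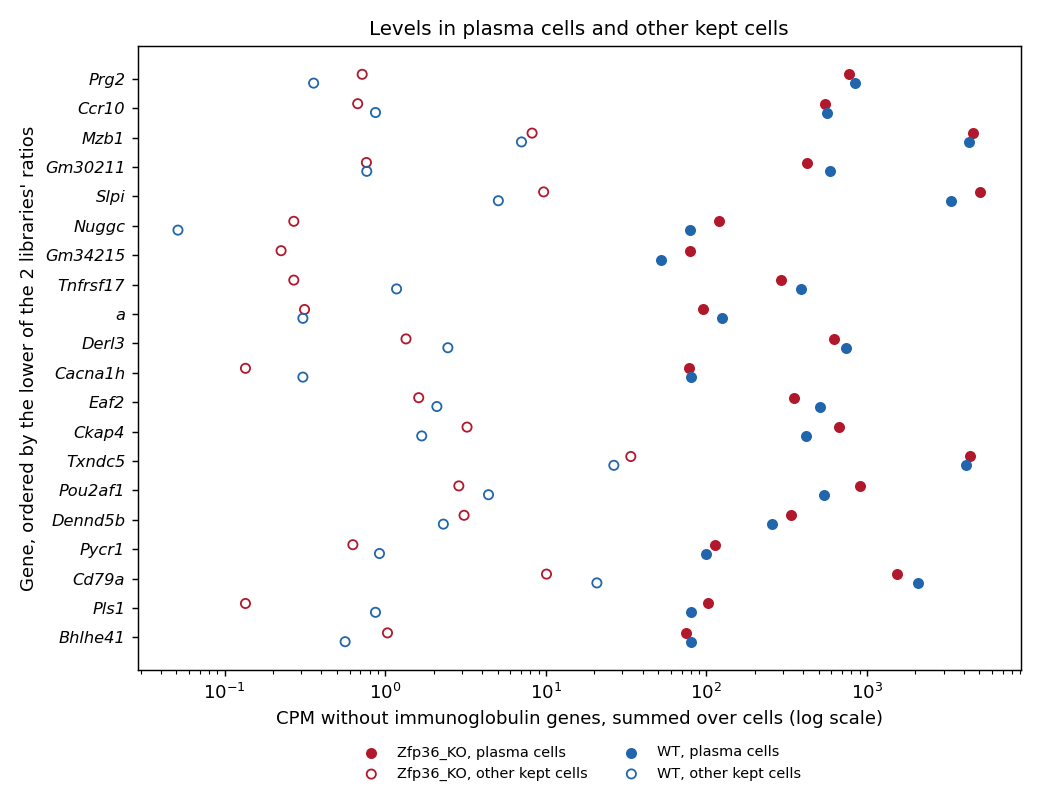
CPM without immunoglobulin genes (x axis, log scale) of the 20 genes highest in plasma cells over the other kept cells (y axis), as filled points for plasma cells and open points for other kept cells, with the knockout in red and WT in blue. Prg2 and Ccr10 lie between 548 and 838 CPM in plasma cells and under 1 CPM in the other cells of both libraries; Gm34215 had no UMI in other WT cells, so that point is not drawn.

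Each secretory list held a larger share of genes at least 2-fold higher in plasma cells of both libraries than the 7.43% of all genes. These were 22 of 27 genes of ER chaperones and disulfide formation, 18 of 23 of ER translocation and signal peptidase, 12 of 18 of ER-associated degradation, 14 of 20 of N-glycosylation and sialylation and 14 of 28 of ER to Golgi transport, and among these lists only N-glycosylation held a gene at least 2-fold lower, 1 in number. The 22 chaperone genes include Mzb1, one of the genes that chose the cells, so the place of Mzb1 was fixed by the selection. Of 14 plasma cell transcription factors, 11 were higher and 0 lower. Of 20 cell cycle genes, 0 were higher and 1 was lower, a list too short to set apart from the 7.43% of all genes that were higher. Against 20% of all genes, 17 of 29 reported TTP target transcripts and 10 of 25 immediate-early genes and decay factors were lower, with 1 and 4 higher. Among the genes lowest in plasma cells were Plekhg1, Ptger2, Gjb2, Lif, Cntn1, Il13, Hs3st1 and Chad. Il13, a type 2 cytokine gene, had 2 UMIs (1.20 CPM) in knockout and 1 UMI (0.759 CPM) in WT plasma cells, against 42.1 and 32.4 CPM in the other cells.

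Epcam, best known as an epithelial adhesion gene, was found in 71.3% of knockout and 76.3% of WT plasma cells, against 10.1% and 7.10% of the other kept cells. With cells thinned to 1000 UMIs it was found in 23 of 153 and 23 of 114 plasma cells, against 2.27% and 1.71% of the other cells. The other 8 epithelial markers, among them Krt8, Krt20, Fabp1 and Reg3g, had 0 UMIs in knockout plasma cells, and in WT plasma cells Krt8 and Lypd8 had 1 UMI each and the others 0. The gene was looked up after its values had been seen.

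Zfp36, the targeted gene (chr7:28376784-28380253, minus strand, mm10), had 370 UMIs in knockout plasma cells and 692 in WT plasma cells, or 222 and 525 CPM. Its log2 ratio of knockout over WT was -1.24 (-1.43 to -1.06), against -0.75 (-0.79 to -0.72) in the other kept cells. At 1000 UMIs per cell it was found in 11.1% of knockout and 36.0% of WT plasma cells. Transcripts of the locus were thus still counted in the knockout, and the sources used here do not say which part of the gene was removed, so 3 prime tags do not check the genotype. Its paralogs stood at 0.03 (-0.13 to 0.19) for Zfp36l1, with 421 and 412 CPM, and at -0.51 (-0.69 to -0.33) for Zfp36l2, with 292 and 416 CPM.

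In knockout over WT plasma cells, immediate-early and heat-shock genes were lower in larger shares than all genes, while the shares of ER folding and export genes that were higher lay near that of all genes. Of 6189 genes with at least 50 UMIs over the plasma cells of both libraries, called measured in this comparison, 940 (15.2%) were at least 1.5-fold higher in the knockout and 437 (7.06%) at least 1.5-fold lower. The median log2 ratio of all genes was 0.07, and centred on it the counts were 770 higher and 573 lower, so the share of higher genes among those past 1.5-fold was 68.3% uncentred and 57.3% centred. At 2-fold, 220 were higher and 126 lower. In unmixed cells 799 genes were higher and 290 lower past 1.5-fold. The number of genes measured there is not given here, so list counts in unmixed cells have no all-gene share beside them. Ribosomal protein genes held 15.4% of non-immunoglobulin UMIs in knockout and 18.4% in WT plasma cells, with 77 of 83 below 0. In the other kept cells these genes held 19.1% and 22.6%.

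Among ER chaperones and disulfide formation, 5 of 27 measured genes (18.5%) were past 1.5-fold higher in the knockout and 0 lower, with a median log2 ratio of 0.28. That share was near the 15.2% of all genes, so the values below describe single genes rather than the list. Hspa5 (BiP), the main ER chaperone of the immunoglobulin heavy chain, stood at 4113 CPM in knockout and 2269 CPM in WT plasma cells, a log2 ratio of 0.86 (0.80 to 0.92). Per cell its median was 3199 CPM in the knockout, with cells from 518 to 18732, and 1614 CPM in WT, with cells from 103 to 13359. The ranges overlapped widely, while the lower quartile of knockout cells, 1925 CPM, lay above the WT median. Hsp90b1 (GRP94) stood at 6422 and 4164 CPM, a log2 ratio of 0.62 (0.58 to 0.67), with cell medians of 6078 and 3409 CPM. Pdia4, a disulfide isomerase, stood at 1872 and 1091 CPM and 0.78 (0.69 to 0.87). Canx (calnexin) and Hyou1, an ER chaperone of the HSP70 class, stood at 0.70 (0.50 to 0.90) and 0.77 (0.48 to 1.07).

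The other kept cells showed like ratios for most of these genes: 0.67 for Hspa5, 0.64 for Hsp90b1, 0.45 for Pdia4, 0.85 for Canx and 0.74 for Hyou1. Each was thus higher in the knockout outside the plasma cells as well. Among the abundant members of the list, Txndc5, a disulfide isomerase gene, stood at 0.09 (0.04 to 0.14), and Mzb1, one of the genes that chose the cells, at 0.08 (0.03 to 0.13). In unmixed cells 4 members were past 1.5-fold, with Hspa5 at 0.88 and Hsp90b1 at 0.50, under that limit.

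The other lists of the secretory route had from 10.5% to 20.7% of their genes higher, against 15.2% of all genes. In ER to Golgi transport, 6 of 29 genes (20.7%) were higher and 0 lower (median 0.26): the COPII coat genes Sec24d at 1.15 (0.74 to 1.58) and Sec31a at 1.06 (0.71 to 1.42), the export receptor gene Mia3 at 0.73, the coatomer gene Copb1 at 0.70, Arfgap3, a regulator of the coatomer, at 0.77, and the Golgi tether gene Golgb1 at 0.66. In ER-associated degradation, 2 of 18 (11.1%) were higher and 0 lower (median 0.13), namely Edem3, a mannosidase gene, at 1.27 (0.77 to 1.79), and the lectin gene Os9 at 0.93 (0.72 to 1.13). In N-glycosylation, 2 of 19 (10.5%) were higher and 0 lower (median 0.14): Rpn1 of the oligosaccharyltransferase at 0.72 and the folding sensor gene Uggt1 at 1.01. Other subunits of the same enzyme lay on both sides of 0. Dad1 stood at -0.50 (-0.64 to -0.37), Krtcap2 at -0.48 (-0.58 to -0.38), Tmem258 at -0.52 and Ost4 at -0.31 (-0.43 to -0.18). Stt3b stood at 0.49, Stt3a at 0.17, Rpn2 at 0.14, Ostc at 0.13 and Ddost at 0.07. The N-glycosylation list summed to 6069 CPM in knockout and 6532 CPM in WT plasma cells. In ER translocation, 3 of 23 were higher and 0 lower (median 0.10), with Srpr, the receptor of the signal recognition particle, at 0.63 and Ssr3 at 0.59. Its abundant members Sec11c, a signal peptidase subunit gene, and Sec61b of the translocation channel stood at -0.28 (-0.34 to -0.22) and -0.29 (-0.37 to -0.21), and the list summed to 17133 and 17654 CPM. In unmixed cells the ER to Golgi median was 0.08 with 6 genes higher, and N-glycosylation had 2 higher and 3 lower. Outside the plasma cells Edem3 stood at 1.03, Arfgap3 at 0.49 and Copb1 at 0.42, so these were higher in the other knockout cells too.

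Of the sensors and effectors of the unfolded protein and integrated stress response, 3 of 12 were higher and 0 lower (median 0.21). The 3 higher genes were 25% of a short list, against 15.2% of all genes. Atf6, the membrane-bound factor that acts on ERSE, stood at 269 and 178 CPM, a log2 ratio of 0.60 (0.37 to 0.84), against 0.88 in the other cells. Chac1, a glutathione-degrading enzyme gene of the integrated stress response, stood at 0.84 (0.24 to 1.47), and Cebpb at 0.60, with 0.36 and 0.33 in unmixed cells. Atf4 and Ddit3 (CHOP) stood at 0.24 and 0.17, under 1.5-fold.

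Of 14 plasma cell transcription factors and regulators, 4 were higher and 1 was lower (median 0.19). These were 28.6% and 7.14%, against 15.2% and 7.06% of all genes. Ell2, an elongation factor that favours the secreted form of the heavy chain mRNA, stood at 609 CPM in knockout and 286 CPM in WT plasma cells, a log2 ratio of 1.09 (0.92 to 1.26), with cell medians of 613 and 264 CPM. At 1000 UMIs per cell it was found in 37.9% and 16.7% of plasma cells. Outside the plasma cells Ell2 stood at 0.58, and Creb3l2, named below, at 0.57. Pou2af1 (OCA-B), the B cell coactivator of octamer factors, stood at 905 and 540 CPM and 0.75 (0.62 to 0.88), and in the other cells, where it had 2.87 and 4.39 CPM, at -0.61. Creb3l2 and Zbtb20 stood at 0.87 (0.60 to 1.14) and 0.63 (0.47 to 0.78), and Pou2f2 (OCT2) at -0.61 (-0.94 to -0.28). Xbp1 stood at 0.22, Irf4 at 0.16 and Prdm1 at 0.55, under 1.5-fold. In unmixed cells 3 were higher and 0 lower, with Zbtb20 at 0.53 and Pou2f2 at -0.56.

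**Figure D3:**
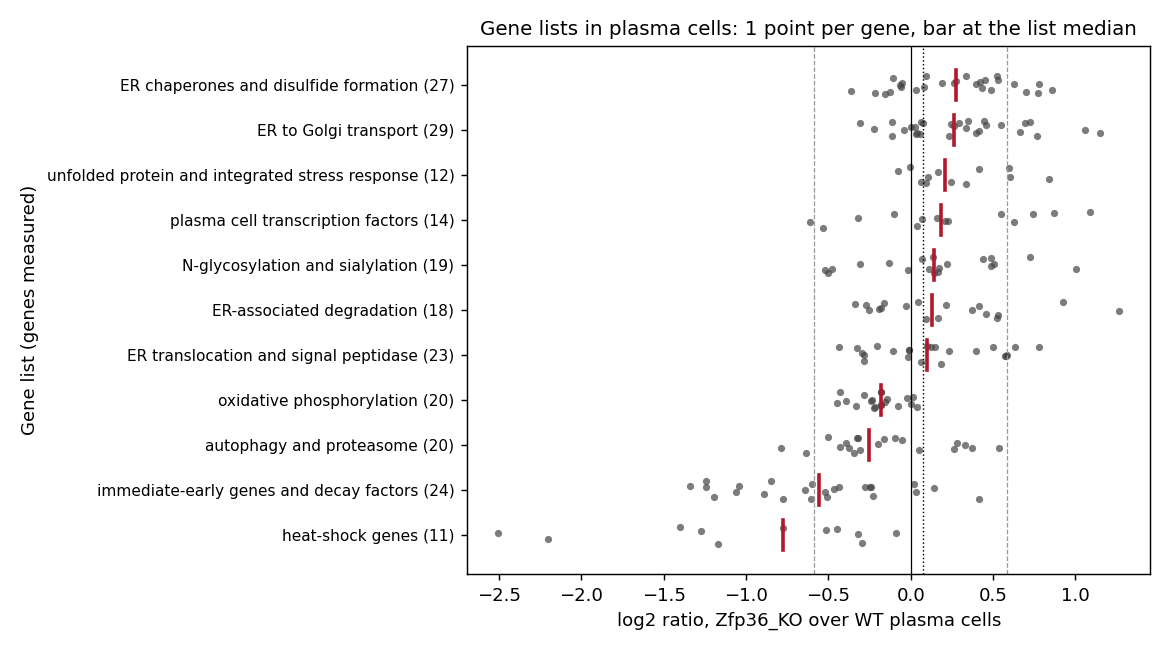
Log2 ratio of knockout over WT plasma cells (x axis) for the measured genes of 11 lists (y axis, with the number of genes), 1 point per gene, red bars at the list medians, dashed lines at 1.5-fold and the dotted line at the median of all genes (0.07). List medians run from 0.28 for ER chaperones to -0.56 for immediate-early genes and -0.78 for heat-shock genes.

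Immediate-early genes and decay factors were lower in 12 of 24 cases (50%, against 7.06% of all genes) and higher in 0 (median -0.56). Junb, an AP-1 subunit gene, stood at 857 CPM in knockout and 1763 CPM in WT plasma cells, a log2 ratio of -1.04 (-1.14 to -0.95). Tnfaip3 (A20), an inhibitor of NF-κB signalling, stood at 79.8 and 189 CPM and -1.24 (-1.56 to -0.93), and the antiproliferative gene Btg1 at 168 and 385 CPM and -1.20 (-1.41 to -0.98). Rgs1 stood at -1.34 (-1.56 to -1.12), with 49.8% of the counts behind the knockout value in a single cell. Fos went against the list at 4984 and 3743 CPM, a log2 ratio of 0.41 (0.36 to 0.46). In unmixed cells 7 were lower, with Junb at -0.89, Tnfaip3 at -0.78, Btg1 at -0.76 and Rgs1 at -0.54. These genes are abundant in T cells and ILCs, and T cell transcripts were unequal between the libraries. Btg1 stood at 1677 and 2179 CPM in the other kept cells, and the part of such transcripts in the result was not tested.

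Heat-shock genes were lower in 6 of 11 cases (54.5%, against 7.06% of all genes) and higher in 0 (median -0.78). Hspa1a, an inducible HSP70 gene, stood at 150 CPM in knockout and 852 CPM in WT plasma cells, a log2 ratio of -2.51 (-2.71 to -2.31), and was at 0 in 125 of 157 knockout cells and 69 of 114 WT cells. Its near-identical neighbour Hspa1b stood at -2.20 (-2.42 to -1.99), and reads could be split between these copies uncertainly. Dnajb1 and the mitochondrial Hspe1 stood at -1.17 and -1.27. In the other kept cells Hspa1a stood at -1.23, Hspa1b at -0.98, Dnajb1 at -0.83 and Hspe1 at -0.27. In unmixed cells 6 were lower, with Hspa1a at -2.99. Of 20 autophagy and proteasome genes, 2 (10%) were lower and 0 higher past 1.5-fold, and Ubb, a polyubiquitin gene, stood at -0.63.

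Apart from the lists, the 12 genes highest in the knockout by the nearer end of their interval were Serpina3f, Hist1h1e, Bcl2l11, Nfxl1, Kpnb1, Man2a1, Xrn1, Hook1, Suz12, Ell2, Ythdc2 and Taok1. Serpina3f, a serine protease inhibitor gene of a cluster of close paralogs, had 235 CPM in knockout and 58.4 CPM in WT plasma cells, a log2 ratio of 2.01 (1.65 to 2.38). It was found in 30.6% of knockout and 23.7% of WT plasma cells, the highest cells had 7117 and 1259 CPM, and 1 cell held 15.9% of the knockout UMIs. In the other kept cells it stood at -0.03 (-0.21 to 0.15), whereas the other 11 genes stood between 0.51 and 1.15 there. Bcl2l11 (BIM), which promotes apoptosis, stood at 109 and 37.2 CPM in plasma cells and 1.55 (1.08 to 2.03), against 0.68 in the other cells. Another apoptosis gene, Bbc3 (PUMA), stood at -0.89, while Mcl1, on which plasma cell survival depends, stood at -0.14 with 737 and 813 CPM. Of 17 survival genes measured, 2 were higher and 1 lower (median 0.05). These shares, 11.8% and 5.88%, lay near the 15.2% and 7.06% of all genes.

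**Figure D4:**
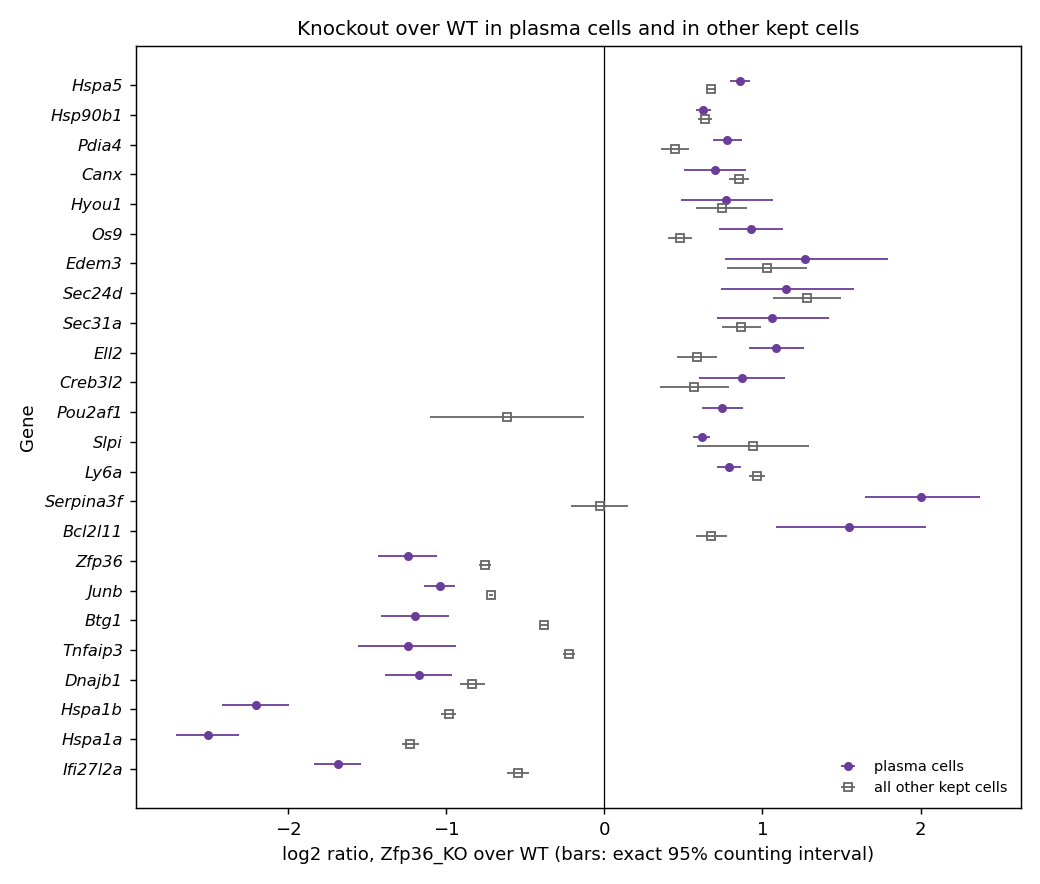
Log2 ratio of knockout over WT (x axis, bars for exact 95% counting intervals) for 24 genes (y axis), in plasma cells (filled circles) and in all other kept cells (open squares). Most genes lie on the same side of 0 in both; Serpina3f is at 2.01 against -0.03 and Pou2af1 at 0.75 against -0.61, where it had under 5 CPM in the other cells.

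The 12 lowest were led by T cell genes: Cd3d and Cd3e, which form CD3 with Cd3g, had 0 UMIs in knockout plasma cells and 99 and 85 UMIs in WT plasma cells. With the knockout set to 3 UMIs they were 41.7-fold and 35.8-fold lower. The ends of their log2 intervals nearest 0 were -5.06 and -4.83. Cd3g, Trac, Lck, Ms4a4b, Il18r1, Ikzf2, Ltb, Hspa1a, Hspa1b and AY036118 completed the 12. Ltb stood at -2.63 and Ikzf2 at -3.08, and at -1.68 and -1.25 in unmixed cells. In the other kept cells Cd3d stood at 9.55 CPM in the knockout and 286 CPM in WT, and Cd3e at a log2 ratio of -4.43. Il18r1 and Ikzf2 differed less there, at -0.97 and -0.64, and were found in 41.7% and 66.9% of the other knockout cells.

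Homing and surface genes held 3 higher and 3 lower of 16 measured (median 0.02). Each count was 18.8% of the list, against 15.2% of all genes higher and 7.06% lower. The gut-homing integrin α4β7 had its chains on opposite sides: Itga4 stood at 368 CPM in knockout and 235 CPM in WT plasma cells, a log2 ratio of 0.64 (0.45 to 0.85), and Itgb7 at 158 and 251 CPM and -0.67 (-0.90 to -0.43). Itgb1, the alternative partner of α4, stood at 66.0 and 30.4 CPM and 1.12 (0.59 to 1.68), against 1.02 (0.91 to 1.12) in the other kept cells. In unmixed cells Itga4 stood at 0.52 and Itgb7 at -0.70, and in the other kept cells at 0.79 and -0.21. Ccr10 stood at -0.05 (-0.19 to 0.10) and Ccr9 at -0.36. Ly6a (Sca-1), an interferon-inducible surface gene, stood at 2800.3 and 1621 CPM and 0.79 (0.71 to 0.86), against 0.97 in the other cells.

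Mucosal effector genes held 2 higher and 3 lower of 7 measured (median -0.19). These were 28.6% and 42.9% of a short list, against 15.2% and 7.06% of all genes. Among them Slpi stood at 0.62 (0.56 to 0.67) in plasma cells and 0.94 in the other cells. In unmixed cells Slpi stood at 0.47, under 1.5-fold. Lgals3 had 80.8% of its knockout UMIs in 1 cell, and Gzmb had 0 UMIs in the knockout and 74.0% of its WT UMIs in 1 cell. Interferon-stimulated genes held 1 higher and 2 lower of 16 (6.25% and 12.5%, median 0.07). Ifi27l2a stood at 308 CPM in knockout and 991 CPM in WT plasma cells, a log2 ratio of -1.68 (-1.83 to -1.54), against -0.55 in the other cells. Rsad2 stood at 1.98 on 5 knockout and 4 WT cells. B cell genes held 1 higher, Btk at 0.60, and 1 lower of 7, Cd79b at -0.62 (-0.78 to -0.46), each 14.3% of the list.

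Transcripts reported as TTP targets held 3 higher and 7 lower of 18 measured (median -0.19). These were 16.7% and 38.9%, against 15.2% and 7.06% of all genes. Those higher were Il22, with 95.2% of its knockout UMIs in 1 cell, Cxcl2, with 70.7% in 1 cell, and Socs3 at 1.07 on 17 knockout and 14 WT cells. Those lower were Zfp36 itself, Junb, Nfkbid at -2.01, Ifng, Ccl4, Nfkbiz at -0.85 and Dusp1 at -1.06. Of them, Zfp36, Junb, Nfkbiz and Dusp1 were also counted above among immediate-early genes and decay factors. Ifng had 1 UMI in the knockout and 76 in WT, of which 46.1% lay in 1 cell. The ratios of Il22, Cxcl2, Ifng and Ccl4 thus rested largely on few cells. Members found in most plasma cells differed in direction, with Junb at -1.04, Mcl1 at -0.14 (-0.26 to -0.02), Pim1 at -0.12 (-0.21 to -0.02) and Fos at 0.41.

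The counts below can be set beside all genes, of which 15.2% were higher and 7.06% lower. All 20 oxidative phosphorylation genes lay within 1.5-fold (median -0.18). Of 17 glycolysis and nutrient transport genes, 1 (5.88%) was higher, Pfkp at 0.64, and 0 lower (median 0.19). Of 13 MHC class I genes 1 (7.69%) was higher and 0 lower (median -0.07). MHC class II genes held 3 higher and 1 lower of 9 (33.3% and 11.1%, median 0.26). However, 64.9% of knockout H2-Aa UMIs came from 1 cell, and Cd74 stood at -0.08. Cell cycle genes held 7 higher and 1 lower of 16 (43.8% and 6.25%, median 0.29), resting on few cells. Mki67, a proliferation marker, was found in 35 knockout and 14 WT plasma cells, but in 3 and 2 cells with at least 5 UMIs, and Top2a in 3 and 2 likewise.

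Plasma cells varied most among themselves in Malat1, a nuclear noncoding RNA, Slpi and Ly6a. This was measured on 153 knockout and 114 WT cells thinned to 1000 non-immunoglobulin UMIs, leaving out 4 knockout cells with fewer. Over 2695 genes found in at least 5% of these cells the median variance over mean was 1.02, near that of counting alone. The highest were Malat1, Slpi, Ly6a, Ly6c2, Jun, Hspa1a, Klf2, Fos, Tmsb4x, Cd52, Ly6d and Ifi27l2a, from 16.8 for Malat1 to 3.75 for Ifi27l2a over the cells of both libraries together. Within libraries the order differed, with Malat1 at 22.8 in the knockout and 5.49 in WT, Ly6c2 at 3.51 and 10.4, and Ifi27l2a at 1.29 and 4.22. In Malat1, 1 knockout cell reached 359 UMIs in 1000, against 80 in the highest WT cell. Slpi had a median of 2 UMIs in 1000 in the knockout and 2 in WT, and highest cells of 40 and 24, and the 10% of cells with the most held 48.4% and 38.5% of its UMIs. At full depth its lower quartile, median and upper quartile over cells were 864, 2481 and 6638 CPM in the knockout. In WT they were 635, 2150 and 4697 CPM, each below the knockout value. The thinned medians were equal, so whether the higher knockout level reached beyond the highest cells depended on the depth used. At 1000 UMIs per cell 71.2% and 73.7% of cells had a UMI.

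Hspa5 differed from Slpi in this respect, with 94.1% of knockout and 80.7% of WT plasma cells having a UMI at that depth, and Hsp90b1 with 98.0% and 92.1%. Ly6a was found in 63.4% of knockout and 47.4% of WT cells, and its paralog Ly6c2 in 37.9% and 27.2%. For Ly6c2 a near-identical gene, Ly6c1, could share reads. Among the 12 variable genes ranks over cells were only weakly related, with Spearman rho at most 0.33 over 153 knockout cells (Malat1 with Jun) and at most 0.37 over 114 WT cells (Jun with Fos). Cells of a library share its depth and free RNA, so these are descriptions.

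**Figure D5:**
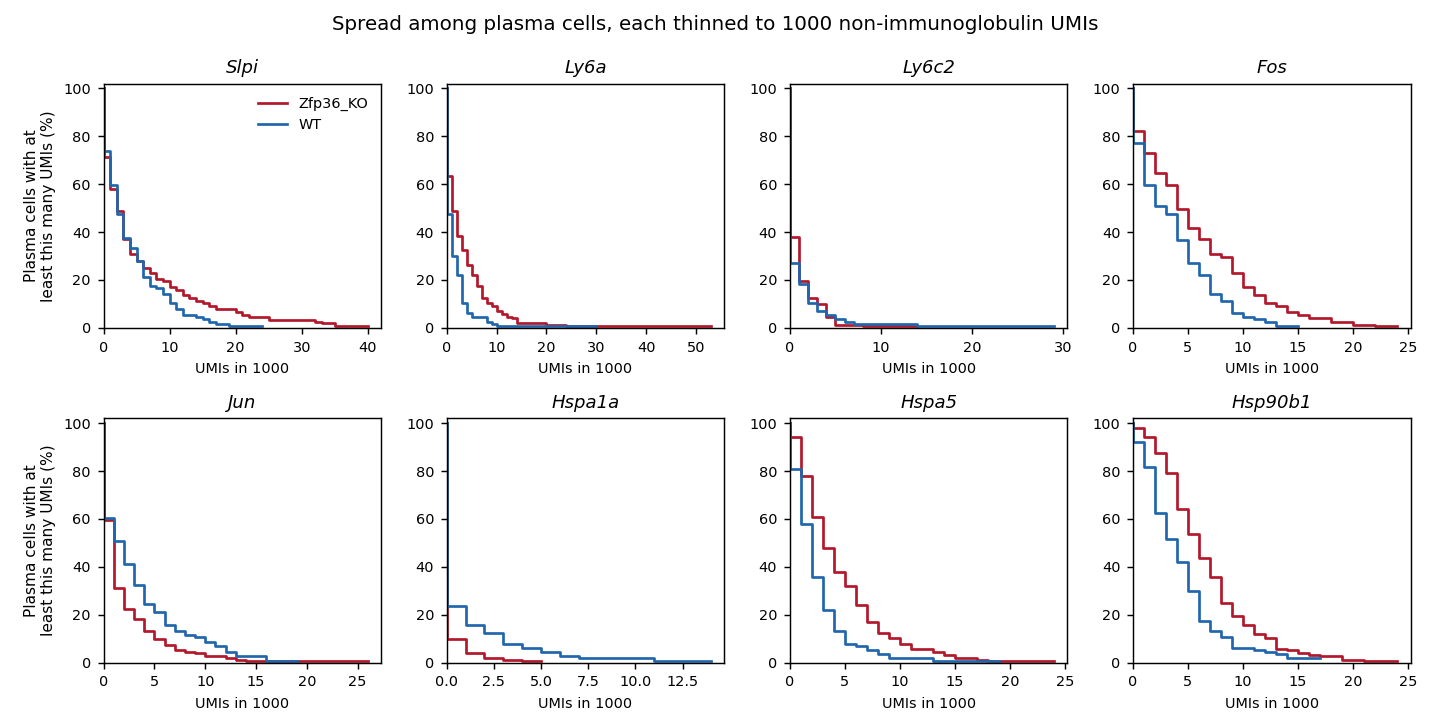
Share of plasma cells (y axis, percent) with at least a given number of UMIs (x axis) of 8 genes, each cell thinned to 1000 non-immunoglobulin UMIs, with 153 knockout cells in red and 114 WT cells in blue. The knockout lines of Hspa5 and Hsp90b1 lie to the right of WT over most of their range, the Slpi lines part at high counts only, and the WT line of Hspa1a lies to the right.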

How the data were processed

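Per the file headers and the submitters' processing notes, the authors ran Cell Ranger 3.1.0 against mm10, and the deposited values are raw UMI counts per gene and called barcode, with no normalization. The libraries held 27733804 knockout and 24721524 WT UMIs over 3522 and 3593 barcodes, of which 2 occurred in both, none among plasma cells. Cells were filtered and chosen as described above. Immunoglobulin genes (396 features whose symbols start with Igh, Igk or Igl, and Jchain) were left out of CPM. Counts were summed over cells and ratios taken without a pseudocount; a library at 0 was set to 3 UMIs. Intervals came from the exact binomial split of UMIs between libraries (95%). They were run on simulated Poisson counts, the model they assume, which leaves out variation between cells and so cannot check them for it. Cells were thinned to 1000 UMIs with a fixed seed. Python 3.11.15 with numpy 2.4.6, scipy 1.17.1 and pandas 2.3.3 was used. Doublets were not removed in the values given; Scrublet in scanpy 1.11.5 marked 5 knockout and 37 WT cells (0.150% and 1.09%), so few that doublets remain likely to be included. Coordinates came from GENCODE M21 and promoters from RefSeq (GRCm38.p6).

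Named genes were the Zfp36 family, the 20 highest and 10 lowest over other cells, the 12 highest and 12 lowest in the knockout by the interval end nearest 0 (10 or more cells, at most 25% of UMIs in 1 cell), members of the lists past 1.5-fold with intervals excluding 0 or among the most abundant, and the 12 most variable genes; Epcam, Gzmb, Il22 and further members named beside counts were chosen after their values were seen. The members, the gene lists and the rules were chosen with earlier results of these data known. Some genes that these rules name are not reported here.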

Additional observations from a re-analysis of the deposited data

How the results depend on the processing

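Shares of plasma cells depended on the cells they were divided by. With at least 1000 genes and at most 5% mitochondrial UMIs they were 13.5% in the knockout and 6.28% in WT, on 1078 and 1800 kept cells, and without cells with T cell transcripts, an alternative chosen after seeing the data, the WT share was 4.53%. The counts of genes past 1.5-fold were 1527 higher and 258 lower with CPM over all genes, immunoglobulin included, 1533 and 800 with a minimum of 20 UMIs, and 246 and 110 with a minimum of 200. Without cells of mixed markers 290 were lower. Zfp36 stood at -1.43 in cells with at least 25% immunoglobulin UMIs, also chosen after seeing the data. Of 1226 values of 95 named genes over 13 alternatives, 11 turned sign from a main ratio past 1.5-fold, in 7 genes. Sign changes of genes within 1.5-fold were not counted. Alternatives that change only the CPM total or the centre shift all genes alike, too little to turn such a ratio, so their values could not add to the count. Il22 stood at -2.67 without Scrublet doublets, -0.34 without its richest cells and -0.83 without mixed cells. H2-Aa stood at -0.51 in cells with no Y-linked UMI and -0.11 without its richest cells, H2-Eb1 at -0.16 and Lgals3 at -0.47 with no Y-linked UMI, and Lgals3 at -0.80 and Birc5 at -0.73 with at least 25% immunoglobulin. Ccl4 stood at 0.58 without its richest cells and Mcm6 at 0.20 without mixed cells. Beyond these the cause was not tested. No paired analysis was possible because each genotype had 1 library. Genes under 50 UMIs were too thinly counted to describe.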
